A study of Mus musculus with 2 samples.

Results

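The D-type cyclins Ccnd1, Ccnd2 and Ccnd3 and the cyclin-dependent kinase inhibitors Cdkn1b (p27Kip1) and Cdkn1c (p57Kip2) were followed from retinal progenitors through neurogenic cells to neurons, and in the retinal pigment epithelium (RPE) and the periocular mesenchyme. The 5 genes were taken by symbol from the 31053 genes counted, and each symbol occurred once in the gene list. Eye cups were dissected at e15.5 from mouse embryos, without cornea, lens and optic nerve, and their cells were sequenced one by one in 2 libraries, each a pool of 3 eye cups. Embryos of the control library were Myrf fl/fl, homozygous for a floxed Myrf allele without Cre. Those of the mutant library were Rx>cre Myrf fl/fl and joined the same alleles to a Cre driven by Rx regulatory sequence, which acts in the early eye field that forms the retina and RPE. Since each genotype was 1 pooled library, no test between genotypes was possible, and the intervals given are 95% intervals for counting error only.

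D-type cyclins bind CDK4 and CDK6, and the resulting kinases phosphorylate the retinoblastoma family proteins, which frees E2F factors to switch on the genes of S phase. Proteins of the Cip/Kip family, p21, p27 and p57, bind cyclin-CDK complexes and restrain CDK2, and p27 and p57 are known to take part when retinal progenitors leave the cell cycle. Ccnd1 is known as the main D cyclin of retinal progenitors, and mice that lack it have a small, underpopulated retina. Much of the control of p27 takes place on the protein, which mRNA counts do not show.

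The 13017 barcodes of the control library and the 13880 of the mutant library held 132436812 and 135678970 unique molecular identifiers (UMIs), with medians of 9339 and 8702 UMIs a barcode. After removal of cells with a high mitochondrial share and of scored doublets, 11576 and 12623 cells were kept. Cells were clustered without the 5 genes and clusters were named from marker genes, which gave 2338 control and 3441 mutant progenitor-like cells, 829 and 1145 neurogenic-like cells, 344 and 489 photoreceptor precursor-like cells, 293 and 398 amacrine-like cells, 423 and 527 retinal ganglion cell-like cells, 370 and 202 RPE-like cells and 1859 and 1289 mesenchyme-like cells. Of the markers of each class, 9 of 9 were above the other cells in both libraries for progenitors, 10 of 10 for neurogenic cells, 8 of 9 for photoreceptor precursors, 7 of 8 for amacrine-like cells, 11 of 13 for amacrine/horizontal-like cells, 11 of 11 for ganglion cells, 11 of 13 for RPE and 13 of 13 for mesenchyme. The targeted gene, Myrf, which encodes a membrane-bound transcription factor, stood at 76.1 CPM (its UMIs in a class, scaled to 1e+06 UMIs in all) in control RPE, from 293 UMIs, and at 30.3 CPM in mutant RPE, from 58 UMIs; the 3′ counts do not show whether a transcript held the floxed part. The mutant library had a Y-linked UMI in 41.8% of kept cells and the control library in 0.0259%, so the pools differed in sex; 8301 control and 3038 mutant cells held an Xist UMI and no Y-linked UMI, and values within them are among the alternatives. The libraries shared 69 cell barcodes, 59 of them among kept cells, and 22.2% of control and 22.0% of mutant cells fell in 5 clusters left unnamed, most of them shallow.

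On the mouse assembly GRCm38, Ccnd1 (ENSMUSG00000070348) spans chr7:144929931-144939925 on the minus strand and Cdkn1c (ENSMUSG00000037664) chr7:143458339-143461050, also on the minus strand. Ccnd2 (ENSMUSG00000000184) lies at chr6:127125162-127152193 on the minus strand, Cdkn1b (ENSMUSG00000003031) at chr6:134920401-134925513 on the plus strand and Ccnd3 (ENSMUSG00000034165) at chr17:47505051-47599691 on the plus strand. Promoter entries (RefSeq, GRCm38.p6, 250 bases before the start) were matched for 2 of the 5 genes, Cdkn1b and Ccnd3, and are shown as the regulatory sequence of an inhibitor and a cyclin; Ccnd1, Ccnd2 and Cdkn1c are named only. Capitals mark the motifs found on either strand, which do not overlap. The GC box was searched as GGGCGG, the forkhead site by the letters TGTTTA, and the box named CCAAT by its own name.
Cdkn1b, chr6:134920151-134920400, plus strand: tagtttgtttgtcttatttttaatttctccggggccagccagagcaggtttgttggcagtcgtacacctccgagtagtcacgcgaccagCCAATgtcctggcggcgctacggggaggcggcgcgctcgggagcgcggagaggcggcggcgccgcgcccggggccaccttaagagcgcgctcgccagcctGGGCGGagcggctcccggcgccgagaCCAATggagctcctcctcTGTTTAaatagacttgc
Ccnd3, first start, chr17:47504801-47505050, plus strand: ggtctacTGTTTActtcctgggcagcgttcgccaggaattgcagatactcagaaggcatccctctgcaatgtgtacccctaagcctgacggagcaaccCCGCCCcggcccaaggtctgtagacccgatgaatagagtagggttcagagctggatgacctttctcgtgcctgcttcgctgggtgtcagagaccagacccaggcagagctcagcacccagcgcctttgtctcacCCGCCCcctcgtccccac
Ccnd3, inner start, chr17:47593217-47593466, plus strand: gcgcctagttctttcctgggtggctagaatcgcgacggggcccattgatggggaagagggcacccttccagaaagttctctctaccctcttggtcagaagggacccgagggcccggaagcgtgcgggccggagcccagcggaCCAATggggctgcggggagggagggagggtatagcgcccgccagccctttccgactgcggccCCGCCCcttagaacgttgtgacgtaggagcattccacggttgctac

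The Cdkn1b window held 1 GC box 61 bases before the start, CCAAT boxes at 161 and 35 bases and a forkhead match at 17 bases, with a GC content of 64.4%. At Ccnd3, the first start had 2 GC boxes on the minus strand and a forkhead match at 243 bases, and the inner start 1 GC box and 1 CCAAT box. Among all 32851 promoter windows, 32.7% held a GC box, 33.8% a CCAAT box and 12.03% the forkhead letters. The E2F letters TTTCGCGC and TTTGGCGC (0.654% of windows) and the TATA letters TATAAA (12.4%) were in none of the 3 windows.

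Ccnd1 was the D cyclin with its highest level in the cycling neural retina. Its level was 3857 CPM (3833 to 3881) in control progenitors and 3952 CPM (3931 to 3972) in mutant progenitors, 1632 and 1637 CPM in neurogenic cells, and 389 and 493 CPM in photoreceptor precursors. Amacrine-like cells held 51.1 and 124 CPM, and retinal ganglion cells, the projection neurons of the retina, 47.5 and 105 CPM. In both libraries the progenitor and neurogenic intervals stood above those of every other named class, and the ganglion cells were the lowest class but for the erythroid cells, in which 26.3 and 48.4 CPM were counted. Because erythroid cells are taken to lack retinal transcripts, their counts serve as the background of free RNA in the droplets. Of the UMIs of Ccnd1, 70.3% in the control and 73.9% in the mutant library lay in progenitors. After every cell was thinned to 2000 UMIs, 99.1% of progenitors in either library held a Ccnd1 UMI, against 51.3% and 54.8% of neurogenic cells, 8.63% and 8.83% of ganglion cells and 3.41% and 5.42% of erythroid cells.

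Ccnd2 was highest outside the neural retina, at 431 and 414 CPM in pericyte-like cells, 394 and 407 CPM in the surface epithelium and 401 and 365 CPM in the mesenchyme, with overlapping intervals between pericytes and epithelium. RPE held 208 CPM (193 to 223) in the control and 248 CPM (227 to 272) in the mutant, and the ciliary margin 274 and 307 CPM. Progenitors stood at 22.2 and 21.0 CPM, so the RPE level was 9.34 times the progenitor level in the control (8.38 to 10.4) and 11.8 times in the mutant (10.5 to 13.3), and the mesenchyme level 18.1 and 17.4 times. Below the progenitors, the neurogenic cells (8.62 and 9.15 CPM) and the amacrine-like cells (7.61 and 8.92 CPM) had intervals that overlapped each other. Erythroid cells held 11.3 and 4.26 CPM; the neurogenic interval overlapped theirs in the control and lay above it in the mutant, and 75 of the 90 control erythroid UMIs came from 1 of 3 erythroid clusters. Ganglion cells held 20 and 40 UMIs in all, or 2.90 and 4.48 CPM.

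Ccnd3 was spread more evenly outside the neural lineage and was low in neurogenic, amacrine-like and ganglion cells. Its highest level was in muscle-like cells, at 277 and 226 CPM, where this cyclin is known to take part in differentiation. Next came the surface epithelium (209 and 175 CPM), Schwann cell precursors (177 and 206 CPM), a mixed pericyte and mesenchyme class (168 and 169 CPM) and pericytes (157 and 159 CPM). In the mutant the Schwann cell precursors stood before the epithelium, and their interval (173 to 243) held the muscle level. RPE (135 and 154 CPM), mesenchyme (127 and 126 CPM), progenitors (112 and 104 CPM) and photoreceptor precursors (110 and 98.2 CPM) were lower, and the intervals of progenitors and photoreceptor precursors overlapped in both libraries. Neurogenic cells stood at 32.4 CPM (28.9 to 36.3) and 30.7 CPM (27.7 to 33.9), amacrine-like cells at 40.2 and 32.8 CPM and ganglion cells at 7.97 and 10.5 CPM, the last within the intervals of the erythroid cells (7.94 and 10.4 CPM). Photoreceptor precursors thus held 3.41 times (2.89 to 4.01) the Ccnd3 of neurogenic cells in the control and 3.20 times (2.77 to 3.71) in the mutant, while amacrine-like cells held 1.24 times (0.973 to 1.56) and 1.07 times (0.852 to 1.33).

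Cdkn1b mRNA changed least along the lineage. It was counted at 100 CPM (96.2 to 104) and 101 CPM (97.9 to 104) in progenitors, 103 CPM (96.8 to 110) and 110 CPM (105 to 116) in neurogenic cells, and 126 and 103 CPM in photoreceptor precursors. Amacrine-like cells (76.9 and 77.1 CPM) and ganglion cells (68.1 and 63.9 CPM) overlapped each other in both libraries. RPE (42.1 and 36.1 CPM) and mesenchyme (35.1 and 33.5 CPM) also overlapped, at 0.421 and 0.357 times the progenitor level for RPE. The highest levels of this inhibitor were therefore in the cells of the neural retina, dividing ones included, and erythroid cells held 5.29 and 6.03 CPM.

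Cdkn1c, which is imprinted and expressed from the maternal allele, had the widest range. Muscle-like cells held 9563 and 8136 CPM, mesenchyme 2364 and 2125 CPM and amacrine-like cells 2310 CPM (2249 to 2372) and 2345 CPM (2292 to 2399). In the rest of the retina the level was 417 and 301 CPM in photoreceptor precursors, 413 and 273 CPM in amacrine/horizontal-like cells and 345 and 320 CPM in ganglion cells. Neurogenic cells held 166 and 162 CPM and progenitors 110 and 81.0 CPM. The ciliary margin stood higher than these, at 671 and 871 CPM. RPE stood at 401 and 378 CPM, 3.65 times the progenitor level in the control (3.43 to 3.89) and 4.67 times in the mutant (4.30 to 5.07). In mesenchyme the level depended on the cluster: it was 3732 and 3437 CPM in cells led by Osr2, Mfap5 and Eln, 2650 and 2704 CPM in cells led by Scx, Gas2 and Meox2, and 948 and 971 CPM in cells led by Matn4, Kera and Igfbp2. With 2000 UMIs a cell, 89.8% and 87.8% of mesenchyme cells, 56.6% and 62.6% of amacrine-like cells and 17.3% and 13.8% of progenitors held a Cdkn1c UMI, against 3.84% and 2.46% of erythroid cells.

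**Figure D1:**
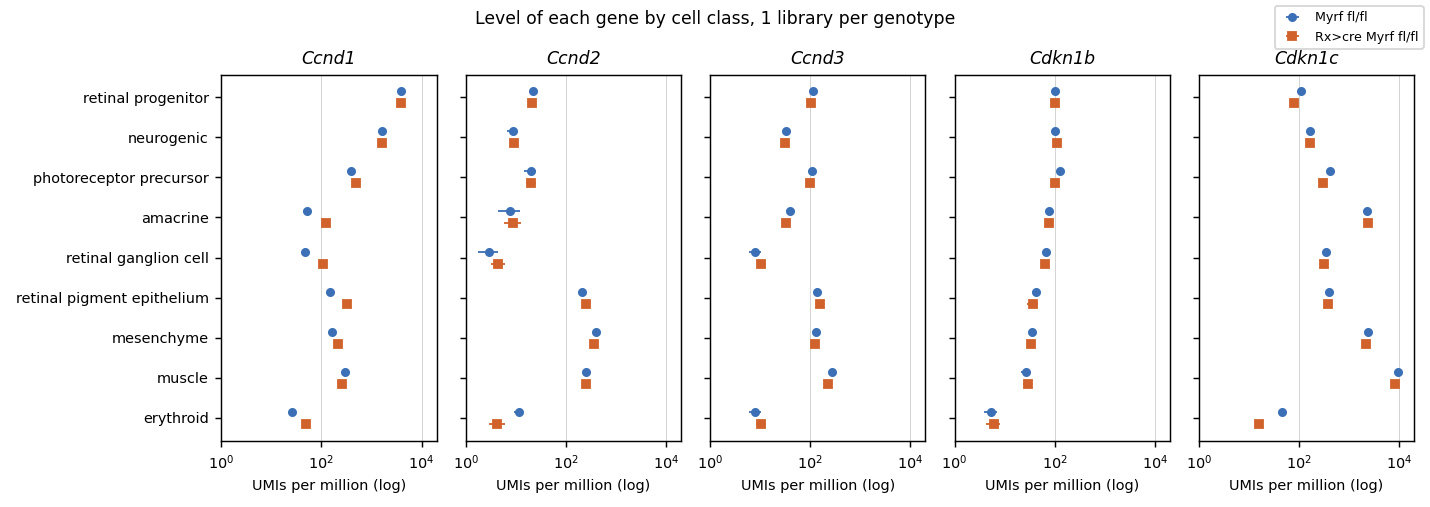
Level of each gene (CPM of the class total, log axis) in each cell class, one panel a gene, with control and mutant libraries as separate points and bars for the 95% counting interval. Of the 9 classes drawn, Ccnd1 is highest in progenitors, Ccnd2 in mesenchyme and Cdkn1c in muscle, and the library points lie close together in most classes.

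The first comparison asked how the genes differed between progenitors and neurogenic cells. Of the neurogenic cells, 17.0% and 16.3% were assigned to S phase, 53.1% and 57.2% to G2/M and 29.9% and 26.5% to G1, by scores over S and G2/M genes. In the control library Ccnd1 stood in neurogenic cells at 0.423 times its progenitor level (0.416 to 0.430; log2 −1.24), Ccnd2 at 0.388 times (0.303 to 0.491; log2 −1.37) and Ccnd3 at 0.289 times (0.256 to 0.326; log2 −1.79). The mutant library gave 0.414 (log2 −1.27), 0.436 (log2 −1.20) and 0.296 (log2 −1.76). All 3 D cyclins were thus at least 2-fold lower in both libraries, against 12.4% of all genes measured in the control and 12.6% in the mutant. The inhibitors stood at or above their progenitor level: Cdkn1b was at 1.03 times (0.957 to 1.11; log2 0.05) in the control and 1.09 times (1.03 to 1.16; log2 0.13) in the mutant, and Cdkn1c at 1.51 times (1.42 to 1.61; log2 0.60) and 2.00 times (1.89 to 2.12; log2 1.00). Counted in either direction, 3 of 5 genes in the control and 4 of 5 in the mutant were past 2-fold, where 18.9% and 19.1% of all genes were; the fourth was Cdkn1c, at the limit itself. The median log2 ratio over all genes was −0.10 in each library and −1.24 and −1.20 over the 5. Since cells of 1 library are not replicates, these are descriptions of 2 libraries. In neurogenic cells 16.9% and 21.2% of Cdkn1c UMIs came from 5 cells, and without the 5 richest cells the control log2 ratio was 0.41. Under the 14 alternatives that gave a ratio Ccnd3 was past 2-fold lower in both libraries, between log2 −2.00 and −1.48; with cells over 2000 UMIs removed, which left 2 control neurogenic UMIs, none was given. Ccnd1 and Ccnd2 were not always past it: with cells assigned by their own markers Ccnd1 was at −0.83 and −0.96 and Ccnd2 at −0.60 and −0.22. Nearest to no difference were control Ccnd1 at −0.28 with cells over 2000 UMIs removed, which left 10 neurogenic cells, and mutant Ccnd2 at −0.04 in cells with an Xist UMI and no Y-linked UMI. With free RNA subtracted, mutant Ccnd2 was at −4.66, since scaling by haemoglobin counts put 8.47 of its 9.15 CPM in neurogenic cells down to free RNA. This scaling can be too high: in all mutant neurons it expected 17.6 CPM of Ccnd2, where 8.46 were counted. Cdkn1b lay between −0.11 and 0.22 and Cdkn1c between 0.41 and 1.13.

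The neurogenic class was made of 4 clusters, and the decline of Ccnd1 ran between them. Cells led by Neurog2, a proneural transcription factor gene, Mybl1, Gadd45g and Hes6 held 5010 CPM (4899 to 5122) and 4755 CPM (4666 to 4846) of Ccnd1, above the 3417 to 4047 CPM of the 4 progenitor clusters. Cells led by Neurog2, Atoh7 and Olig2 held 1780 and 1553 CPM. A cluster led by Atoh7 and Neurog2 that also had the mitotic genes Cdc20, Cenpa and Ccnb1 among its first 10 held 652 and 737 CPM, and one led by Gal, Gadd45a, Atoh7 and the ganglion cell gene Pou4f2 held 282 and 279 CPM. Ccnd1 was thus lower than in progenitors also in a cluster that held mitotic transcripts. Cdkn1c was 65.5 and 61.7 CPM in the cells with Olig2 and 293 and 395 CPM in those with Pou4f2, whereas Cdkn1b went the other way, from 139 and 138 CPM to 57.4 and 72.2 CPM. Ccnd3 was 60.2 and 50.9 CPM in the cluster with the highest Ccnd1 and between 17.6 and 34.5 CPM in the other 3.

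**Figure D2:**
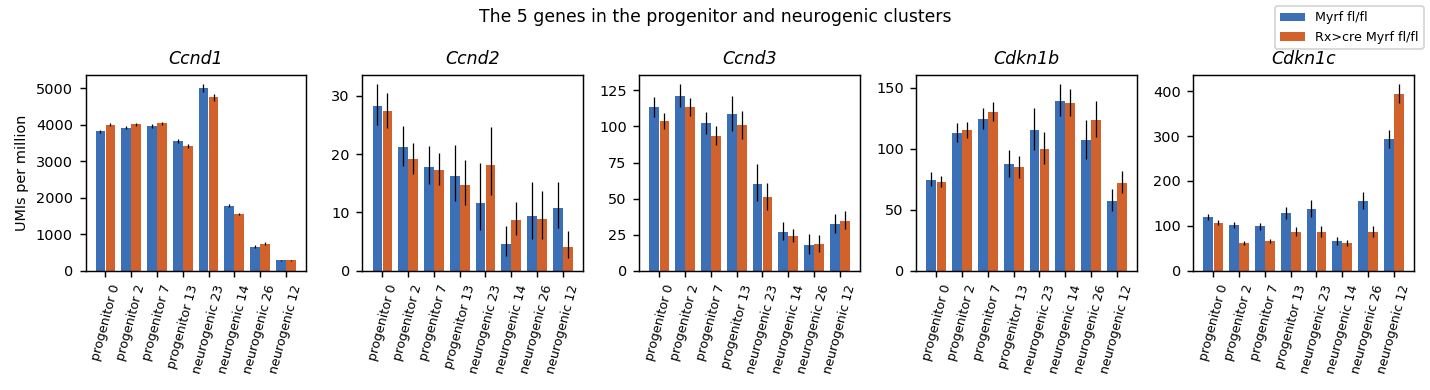
Level of each gene (CPM) in the progenitor and neurogenic clusters, with bars for each library and lines for the 95% counting interval. Control Ccnd1 goes from 5010 CPM in neurogenic cluster 23, led by Neurog2 and Mybl1, over clusters 14 (Olig2) and 26 (Cdc20) to 282 CPM in cluster 12, led by Gal and Gadd45a, where Cdkn1c is highest.

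A second view ordered 10453 progenitor, neurogenic and neuronal cells (4304 control, 6149 mutant) by 12 neuron genes minus 16 proliferation genes, none of them one of the 5, in 10 bins of equal size, with every cell thinned to 2000 UMIs. Ccnd1 was flat between 3602 and 3821 CPM over the first 6 bins, 2384 and 2550 CPM in the seventh, 269 and 227 CPM in the eighth and 50.3 and 72.7 CPM in the last. Cdkn1c took the reverse course, at 85.4 and 72.5 CPM in the first bin, 183 and 207 CPM in the seventh, 593 and 553 CPM in the eighth and 1263 and 1354 CPM in the ninth. The largest drop of Ccnd1, and the largest rise of Cdkn1c as a fold, lay between the seventh and eighth bins, where progenitors went from 54.7% and 56.8% of the cells to 3.25% and 1.63%. In CPM the rise of Cdkn1c was larger from the eighth to the ninth bin. The libraries differed in single bins: Ccnd2 in the seventh was 9.11 CPM (3.93 to 18.0) in control and 30.5 CPM (21.5 to 42.0) in mutant cells, and Cdkn1c in the third was 119 CPM (96.0 to 145) and 64.1 CPM (51.0 to 79.5). In the last bin, of which 83.3% and 82.5% were ganglion cells, Cdkn1c was back at 400 and 374 CPM, and the ninth bin held 41.6% and 40.6% amacrine-like cells. The control ratio of last to first bin, log2 2.23 for Cdkn1c, was 3.24 with 5 bins and 1.66 with cells ordered by the neuron genes alone. Ccnd3 stayed between 66.0 and 120 CPM through the eighth bin and was 8.57 and 12.98 CPM in the last. The eighth bin was a mixture, with 42.5% and 44.5% photoreceptor precursors and 32.3% and 30.1% neurogenic cells. Those classes held 110 and 98.2 CPM and 32.4 and 30.7 CPM of Ccnd3. Cdkn1b went from 130 and 110 CPM in the first bin to 62.6 and 81.5 CPM in the seventh and was 80.3 and 67.5 CPM in the last. Of the kinases that pair with the D cyclins, Cdk4 was 803 and 812 CPM in the eighth bin, where Cdk6 was 18.6 and 10.6 CPM against 115 and 116 CPM in the first.

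**Figure D3:**
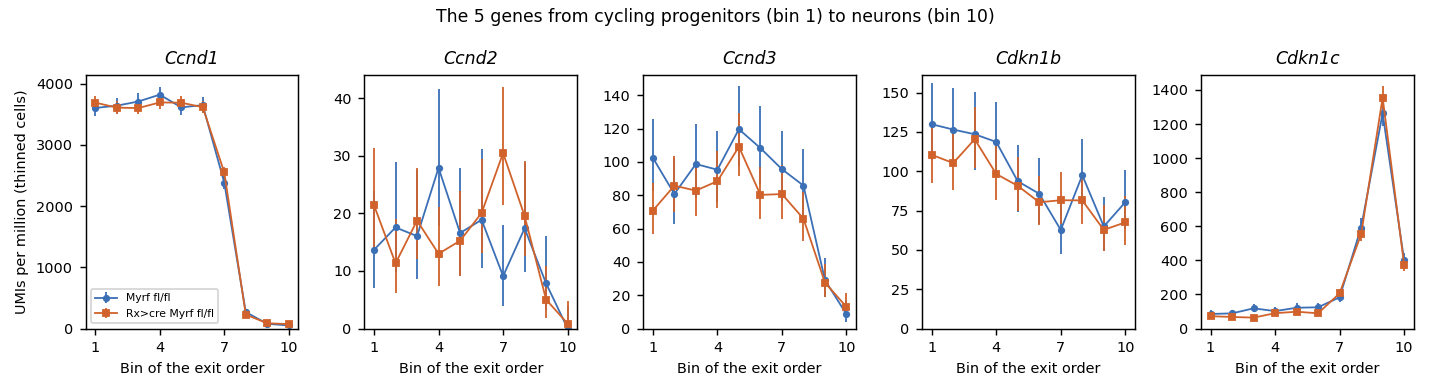
Level of each gene (CPM) over 10 bins of equal cell number ordered from proliferating to neuronal, with a line for each library and 95% counting intervals. The Ccnd1 lines drop between the seventh and eighth bins, and the Cdkn1c lines rise up to the ninth, in both libraries.

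The neuron classes were then set against neurogenic cells. Ganglion cells held 0.0291 times (0.0260 to 0.0325) the Ccnd1 of neurogenic cells in the control and 0.0643 times (0.0602 to 0.0687) in the mutant, with 2.07 and 1.97 times the Cdkn1c and 0.660 and 0.579 times the Cdkn1b. Amacrine-like cells held 0.0313 and 0.0759 times the Ccnd1 and 13.9 times (13.1 to 14.7) and 14.5 times (13.8 to 15.2) the Cdkn1c. Free RNA alone, scaled by haemoglobin counts, was expected to give more Ccnd1 than was counted in ganglion and amacrine-like cells (87.9 and 122 CPM, and 108 and 295 CPM). The scaling was thus too high for Ccnd1 there, and how much of the count was free RNA was not resolved. These Ccnd1 ratios are not corrected for free RNA and may be too high. Photoreceptor precursors kept more Ccnd1, 0.238 and 0.301 times, and held 2.50 and 1.86 times the Cdkn1c. That Ccnd1 was uneven among their cells: it was 96.8 and 158 CPM in the 85.8% and 83.2% of cells assigned to G1 and 1155 and 1048 CPM in the 42 and 63 cells assigned to G2/M, and 35.0% and 24.5% of its UMIs lay in 5 cells. Near a limit between phases lay 20.5% and 25.4% of the photoreceptor precursors. Among these 3 neuron classes, amacrine-like cells stood above the other 2 in Cdkn1c and photoreceptor precursors in Ccnd1 and Ccnd3, with intervals that did not overlap in either library. For all neurons together, Cdkn1c was 6.58 and 8.33 times the progenitor level, Ccnd1 0.0320 and 0.0498 times and Cdkn1b 0.804 and 0.731 times.

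Cell cycle phase was assigned from S and G2/M gene lists that hold none of the 5 genes, with every cell thinned to 2000 UMIs. In neurogenic cells Ccnd1 was 4870 and 4880 CPM in cells assigned to S phase, 1368 and 1495 CPM in G2/M and 369 and 235 CPM in G1. In progenitors it was 3906 and 3989 CPM in S, 3939 and 3905 CPM in G2/M and 3547 and 3322 CPM in G1, so the spread over phases was large in neurogenic cells and small in progenitors. Cdkn1c in neurogenic cells was 306 CPM (259 to 359) and 385 CPM (337 to 438) in G1 against 93.5 CPM (61.1 to 137) and 84.2 CPM (57.2 to 120) in S. Cdkn1b in progenitors was higher in G2/M, at 124 CPM (111 to 139) and 107 CPM (96.5 to 118), than in S, at 79.1 CPM (67.0 to 92.8) and 77.0 CPM (67.2 to 87.8). The progenitor clusters did not follow 1 order by phase. Cdkn1b was 124 and 131 CPM in the cluster led by Cenpf, Ube2c and Prc1, 113 and 115 CPM in the one led by Fgf15 and Hist1h genes, 87.3 and 85.0 CPM in the one led by Knstrn, Cdc20 and Ccnb2 and 74.8 and 73.0 CPM in the one led by Ung, Slc2a1 and Dapl1. Only 3.74% and 3.58% of progenitors were assigned to G1, and 10.8% and 11.8% of progenitors and 11.8% and 12.9% of neurogenic cells lay near a limit between phases.

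**Figure D4:**
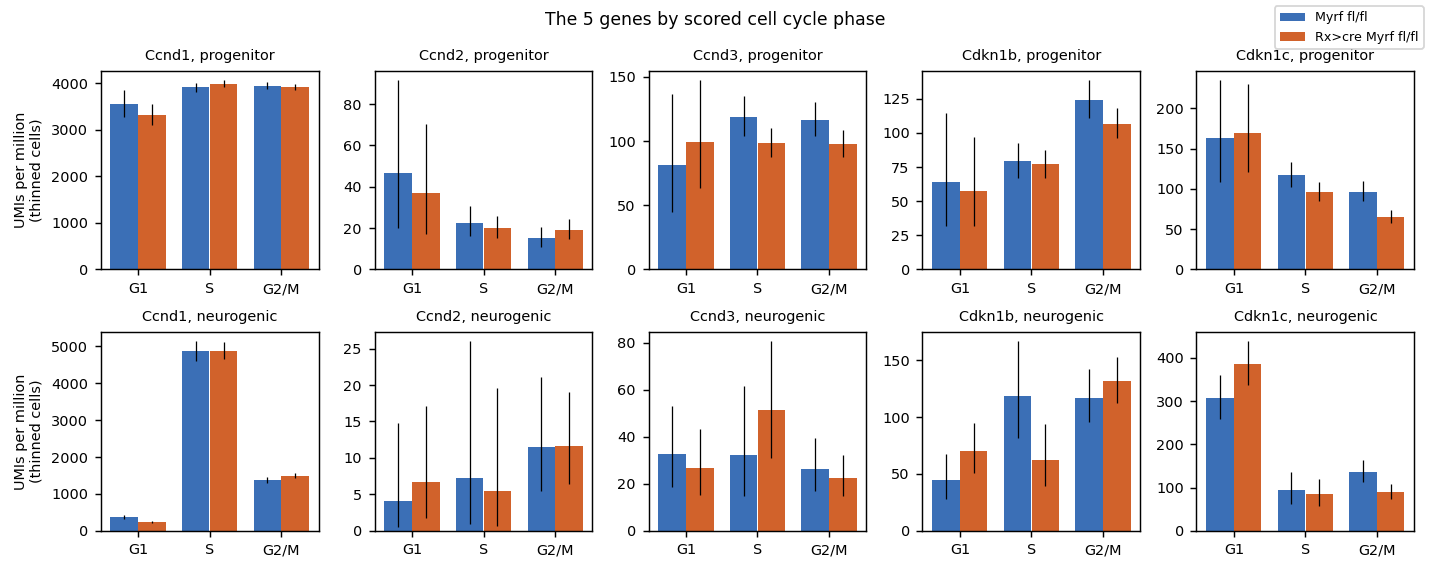
Level of each gene (CPM, cells thinned to 2000 UMIs) by assigned phase in progenitors and neurogenic cells, with 95% counting intervals. Ccnd1 differs by assigned phase in neurogenic cells, at 4870 CPM in S and 369 CPM in G1 in the control, and little in progenitors. Cells assigned to G1 include cells that have left the cycle.

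Detection of a cyclin and an inhibitor in the same cell was counted with every cell thinned to 5000 UMIs. In neurogenic cells Ccnd1 and Cdkn1c were found together in 17.5% (14.9 to 20.3) of 778 control cells and 14.1% (12.1 to 16.4) of 1089 mutant cells, where the product of the single shares was 19.8% and 17.4%. Cdkn1c was found in 28.5% and 21.4% of the cells with Ccnd1 and in 38.2% and 36.1% of those without. Ccnd1 and Cdkn1b were found together in 22.9% and 26.9% of neurogenic cells, with products of 21.0% and 26.5%. Overlap of the cyclin with Cdkn1c thus lay below the product in both libraries, outside the interval in the mutant and inside it in the control, while the overlap with Cdkn1b was within it.

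Of 44 other genes of the G1/S pathway, grouped by role, 42 were measured in neurogenic against progenitor cells in the control and 43 in the mutant. In the control 2 were past 2-fold higher and 1 lower, and in the mutant 3 higher and 1 lower, with a median log2 ratio of −0.16 and −0.19 beside −0.10 for all genes. Of all genes 6.46% and 6.53% were past 2-fold higher and 12.4% and 12.6% lower. Past 2-fold in both libraries were Cdkn1a, which encodes p21 (log2 2.09 and 2.30), Rb1, the retinoblastoma gene (log2 1.16 and 1.04), and Foxo3, a forkhead factor (log2 −1.25 and −1.37). The fourth in the mutant was Cdkn2a, the INK4 inhibitor and Arf locus, on 13 and 12 UMIs. Cdk4 was 1.37 times its progenitor level in both libraries, and Cdk6 0.527 and 0.610 times.

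The second comparison was between genotypes within a class. In progenitors 0 of 5 genes were past 1.5-fold, where 5.55% of all measured genes were, and in neurogenic cells 0 of 5, where 6.19% were. The neurogenic ratios of mutant to control lay between 0.946 (Ccnd3, 0.811 to 1.10) and 1.07 (Cdkn1b, 0.984 to 1.16), and the interval of each of the 5 included 1. Ccnd2 there was low, and haemoglobin scaling put 4.53 of 8.62 CPM in the control and 8.47 of 9.15 CPM in the mutant down to free RNA. That scaling can be too high, and erythroid cells held 11.3 and 4.26 CPM of Ccnd2. Over the alternatives the log2 ratio of Ccnd2 in neurogenic cells, 0.09 here, lay between −2.52 and 0.93. For progenitors the ratio of Ccnd1 was 1.02 (1.02 to 1.03) and that of Cdkn1c 0.736 (0.699 to 0.776). Over the alternatives the log2 ratio of Cdkn1c, −0.44 here, lay between −0.54 and −0.37. The Cdkn1c difference of −29.0 CPM in progenitors stood beside one of −30.2 CPM in erythroid cells. The latter lay in 1 of 3 erythroid clusters, which went from 86.9 to 19.5 CPM, while the others held 7.58 and 7.29 CPM and 25.7 and 40.3 CPM. The Cdkn1c expected in progenitors from free RNA, scaled by haemoglobin counts, was 22.3 and 21.1 CPM. Mesenchyme, in which Cdkn1c is high, was 1859 cells in the control and 1289 in the mutant, and in erythroid cells 13 of 13 mesenchyme markers were lower in the mutant library (368.8 and 132.9 CPM summed). In progenitors those markers summed to 100.4 and 141.8 CPM, with 4 of 13 lower in the mutant.

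Among neurons Ccnd1 had the highest ratio of the 5 genes. Its ratio was also above 1 in some classes outside the neural retina and RPE, at 1.55 (1.37 to 1.75) in the surface epithelium. Immune cells gave 1.47 (1.32 to 1.64) and pericytes 1.26 (1.11 to 1.42). It was 0.953 in the mixed pericyte and mesenchyme class, 0.912 in endothelial cells and 0.855 in muscle-like cells. Schwann cell precursors held 585 and 997 CPM of Ccnd1 and erythroid cells 26.3 and 48.4 CPM. In photoreceptor precursors the Ccnd1 ratio was 1.27 (1.17 to 1.37), with Cdkn1c at 0.722 (0.664 to 0.785), and 0 of 5 genes were past 1.5-fold beside 9.4% of all genes. In amacrine-like cells 1 of 5 was, beside 10.2%: Ccnd1, at 2.43 (1.98 to 3.00), or log2 1.28. With no doublet removal this was log2 0.22 and with cells assigned by their own markers 0.56, both under 1.5-fold. In ganglion cells 2 of 5 were, beside 7.3%: Ccnd1, at 2.21 (1.95 to 2.52), and Ccnd2, at 1.54 (0.881 to 2.79), whose interval included 1. For Ccnd1 in ganglion cells, log2 1.15 here, the alternatives lay between 0.25, in cells with an Xist UMI and no Y-linked UMI, where it was under 1.5-fold, and 1.47. In amacrine/horizontal-like cells (156 and 253 cells) 2 of 4 measured genes were past 1.5-fold, beside 14.2% of all genes. Ccnd1 stood at 1.58 (1.26 to 1.99) and Cdkn1c at 0.661 (0.578 to 0.755), the lowest ratio of an inhibitor in these 4 neuron classes. Progenitor markers were higher in the mutant ganglion and amacrine-like cells. Summed over 9 markers they went from 202 to 297 CPM in ganglion cells, with 9 of 9 higher in the mutant, and from 820 to 1001 CPM in amacrine-like cells, with 7 of 9 higher, and none was at 0. In photoreceptor precursors they summed to 1097 and 1133 CPM, with 4 of 9 higher, and in amacrine/horizontal-like cells to 260 and 386 CPM, with 6 of 9 higher. In ganglion cells 38.4% and 31.8% of Ccnd1 UMIs lay in 5 cells, and in amacrine/horizontal-like cells 62.0% and 57.0%. The Ccnd1 counted in ganglion and amacrine-like cells was below that expected from the haemoglobin scaling in both libraries, so the scaling was too high there, as given above.

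RPE is a tissue of the eye in which MYRF is known to act; roles in the ciliary body and retina are debated. Of the 5 genes 1 was past 1.5-fold, beside 13.8% of all measured genes. Ccnd1 went from 151 CPM (139 to 163; 580 UMIs) to 322 CPM (297 to 349; 616 UMIs), a ratio of 2.14 (1.91 to 2.40). Ccnd2 had a ratio of 1.20 (1.07 to 1.34), Ccnd3 of 1.14 (0.987 to 1.32), Cdkn1b of 0.857 (0.637 to 1.14) and Cdkn1c of 0.942 (0.861 to 1.03), so 3 of the 5 intervals included 1. Over the alternatives the log2 ratio of Ccnd2, 0.26 here, lay between −0.01 and 0.47, and that of Ccnd3, 0.19 here, between −0.37 and 1.20, so neither kept its direction. Nor did the inhibitors: Cdkn1b, −0.22 here, lay between −0.70 and 0.09, and Cdkn1c, −0.09 here, between −0.73 and 0.06. The related inhibitor gene Cdkn1a, a p53 target that encodes p21, stood at 1.82 CPM (7 UMIs) in control and 39.2 CPM (75 UMIs) in mutant RPE.

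The Ccnd1 value of RPE rested on few cells. The 5 richest cells held 37.8% of its control and 51.1% of its mutant UMIs, and without them the levels were 96.9 and 174 CPM. All 5 in each library held 3 or more UMIs of the neural retina genes given below. Their median depths were 25705 and 26231 UMIs, beside 6984.5 and 3642 in the class. Over the alternative settings the log2 ratio of Ccnd1, 1.10 here, lay between 0.32 and 1.53. Cells with fewer than 3 UMIs of 12 neural retina genes, 218 and 116 cells of the class, held 61.7 CPM (49.2 to 76.4) and 77.2 CPM (55.4 to 105), with overlapping intervals, and those with 3 or more held 199 and 416 CPM. The same 12 genes summed to 786 CPM in control and 990 CPM in mutant RPE, with 6 of 12 higher in the mutant and none at 0, and 9 progenitor markers summed to 808 and 1133 CPM, with 7 of 9 higher. Haemoglobin counts scaled the free RNA at 9.10% and 26.4% of the UMIs of RPE cells, which alone would give 107 and 406 CPM of Ccnd1. In the mutant this is above the level counted, so the scaling was too high there, and the part of Ccnd1 that was free RNA was not resolved. The cells low in neural retina genes were shallow, with medians of 1978 and 1501.5 UMIs. In them Ccnd2 was 204 and 260 CPM, beside 208 and 248 CPM in the whole class, and Cdkn1c 323 and 316 CPM, beside 401 and 378 CPM.

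In mesenchyme, which does not arise from the eye field, 0 of 5 genes were past 1.5-fold, beside 8.65% of all genes. Ccnd1 had a ratio of 1.33 (1.27 to 1.38), Ccnd2 of 0.911 (0.883 to 0.939), Ccnd3 of 0.988, Cdkn1b of 0.953 and Cdkn1c of 0.899 (0.888 to 0.910). Over the alternatives the log2 ratio of Ccnd1, 0.41 here, lay between −0.13 and 0.64, the upper end past 1.5-fold. Over the alternatives the log2 ratio of Cdkn1c, −0.15 here, lay between −0.33 and −0.05, but turned to 0.76 with cells over 2000 UMIs removed, which left 10 and 14 mesenchyme cells. The neural retina genes were 276 and 543 CPM, with 12 of 12 higher in the mutant, and cells with fewer than 3 UMIs of them held 141 and 129 CPM of Ccnd1, the reverse order. Within clusters Cdkn1c was lower in the mutant in the Osr2 cells (3732 and 3437 CPM) and not in the Matn4 cells (948 and 971 CPM).

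**Figure D5:**
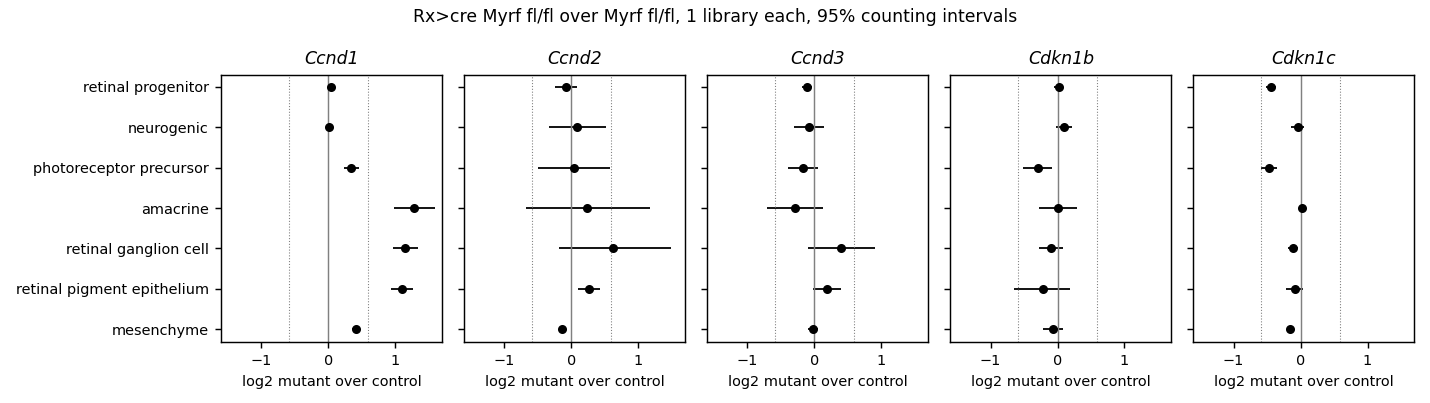
Ratio of mutant to control level of each gene (log2 axis) in each class, with 95% counting intervals, and a line at no difference. Ccnd1 lies furthest to the right in amacrine-like cells (2.43), ganglion cells (2.21) and RPE (2.14), and the 5 genes lie near 1 in neurogenic cells.

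Of the other G1/S genes, 0 of 43 measured in progenitors and 0 of 42 in neurogenic cells were past 1.5-fold between genotypes, beside 5.55% and 6.19% of all genes, with medians of 0.03 and 0.03 on the log2 scale. In RPE 2 of 39 were higher and 5 lower, with a median log2 ratio of −0.20 beside −0.07 for all genes, and these shares stand beside 13.8% of all genes past 1.5-fold either way. The higher ones were Cdkn1a (log2 4.43) and Rbl1, which encodes the pocket protein p107 (log2 0.88). The lower ones were E2f2 (log2 −0.99), Ambra1 (log2 −0.93), which serves in the turnover of D cyclins, the phosphatase gene Cdc25a (log2 −0.71), Skp2 (log2 −0.68), the F-box protein that marks p27 for degradation, and Fbxo4 (log2 −0.67). Between 5 and 31 mutant UMIs stood behind each of these 5, and the intervals of E2f2 and Fbxo4 included 1. In mesenchyme 3 of 41 were higher and 0 lower, beside 8.65% of all genes past 1.5-fold. They were E2f2 at 1.67 times (50 and 62 UMIs), E2f8 at 1.59 times (93 and 110 UMIs) and Prox1 at 1.59 times (22 and 26 UMIs), whose interval included 1.

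The 5 clusters left unnamed are given by their leading genes. Those led by Hist1h2ae, Dapl1 and Pbk (9.30% and 9.46% of kept cells) and by Dapl1, Ung and Gins2 (6.07% and 5.59%) held 2278 to 2561 CPM of Ccnd1, and the one led by Crym, Lars2 and Aldh1a2 (4.50% and 4.39%) held 384 and 243 CPM of Ccnd2 and 2218 and 2024 CPM of Cdkn1c. The cluster led by Tubb3, Ppp1r14a and Ptf1a (2.28% and 2.50%) held 662 and 1418 CPM of Cdkn1c. Their medians lay between 897.5 and 1472.5 UMIs. The fifth, led by the mast cell genes Cma1, Cpa3 and Tpsb2, had 10 and 9 cells.

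Over 16 classes in 2 libraries, 32 points that share libraries and depth, the genes closest to Ccnd1 among 14038 by Pearson correlation of log levels were Myb (0.905), Lbr (0.895) and Hmgb2 (0.888). The 3 for Ccnd2 were Copz2 (0.941), Pabpc4l (0.935) and Creb3l2 (0.934), and for Ccnd3 Kdelc2 (0.933), Ctdsp1 (0.931) and Pbxip1 (0.925). Cdkn1b was closest to Baz2b (0.943), D030056L22Rik (0.942) and Chd9 (0.941), and Cdkn1c to Rtkn (0.867), Tpm1 (0.825) and Fndc5 (0.824). Among the 5 themselves the highest value was that of Ccnd2 with Ccnd3 (0.850) and the lowest that of Ccnd2 with Cdkn1b (−0.18), and Ccnd1 with Cdkn1c stood at −0.11.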

How the data were processed

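The deposited matrices hold counts of UMIs for each gene in each cell, not normalized, from 2 libraries of 10x Genomics 3′ chemistry that the authors aligned to mm10 (GRCm38). The submitters' processing notes name Cell Ranger 7.1.0 and Seurat 4.1.1, and the matrix header names software version 3.1.0. The study's stated limit of 2000 UMIs a cell had not been applied to these matrices (79.1% and 80.6% of barcodes exceeded it) and was tried as an alternative.

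Cells under 200 genes or over 15% mitochondrial UMIs were removed, with 879 and 733 barcodes over the latter limit. Doublets were scored with Scrublet in scanpy 1.11.5 and removed above a fixed score of 0.2 (366 control cells, 3.06%; 395 mutant cells, 3.03%), since the automatic threshold marked 366 and 0. Cells were clustered together by the Leiden method (leidenalg 0.10.2) at resolution 1.0 on 30 components of 1875 variable genes, without the 5 genes, the G1/S list, the cell type markers and sex-linked genes, into 38 clusters, 33 of them named from markers. A class level is the UMIs of a gene over all UMIs of the class, times 1e+06 (CPM), with an exact Poisson interval. Ratios have exact conditional binomial intervals and shares Clopper-Pearson intervals (scipy 1.17.1), all at 95% and for counting error only. Genes with 20 or more UMIs in the pair compared counted as measured. Thinning used a fixed seed. All 5 genes are named; of the G1/S list, those past 1.5-fold between libraries or past 2-fold between classes in both libraries. The genes, lists and class markers were chosen with earlier results of these data known. Alternatives are given in the closing section.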

Additional observations from a re-analysis of the deposited data

Results flagged for a closer look

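Ccnd2 was flagged because the difference between genotypes had opposite signs in 2 classes, with log2 ratios of mutant to control of 0.26 in RPE and −0.13 in mesenchyme. With 1 library per genotype the difference between these ratios was not tested. The sign in RPE turned with a mitochondrial limit of 5%, at −0.01, and the ratio was 0.00 when cells were thinned to 2000 UMIs and 0.06 in cells with an Xist UMI and no Y-linked UMI.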

How the results depend on the processing

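Values below are log2 ratios. No paired analysis was possible because each genotype is 1 library and no test was made. Of 391 mutant to control values under alternatives, 351 kept the sign, and of 142 neurogenic to progenitor values 139 did. With cells over 2000 UMIs removed, which left 10 control and 14 mutant mesenchyme cells, 10 and 13 neurogenic cells, 40 and 57 progenitors and 122 and 79 RPE cells, Cdkn1c between genotypes was 1.13 in neurons and 0.76 in mesenchyme, Ccnd1 in RPE was 0.64 (1.10 in the report), Ccnd3 in RPE 1.20, and control neurogenic to progenitor Ccnd1 −0.28. With a mitochondrial limit of 5%, RPE gave 0.72 for Ccnd1, −0.01 for Ccnd2 and −0.35 for Cdkn1c, and neurogenic to progenitor Cdkn1c was 0.50. In cells with an Xist UMI and no Y-linked UMI, Ccnd1 in RPE was 1.53, Ccnd2 in RPE 0.06 and Cdkn1c in neurons 0.05. In cells with under 3 neural retina UMIs, Ccnd1 was 0.32 in RPE and −0.13 in mesenchyme, and Ccnd3 in RPE 0.46. The highest alternative value of Ccnd1 in mesenchyme was 0.64, past 1.5-fold. At resolution 2.0, RPE gave 1.48 for Ccnd1 and −0.31 for Cdkn1c, and neurogenic to progenitor −0.93 for Ccnd1, 0.16 for Cdkn1b and 0.41 for Cdkn1c. With cells assigned by their own markers, RPE gave 0.47 for Ccnd1, 0.47 for Ccnd2 and 0.06 for Cdkn1c, and neurogenic to progenitor −0.83 for Ccnd1, −0.60 for Ccnd2, −1.48 for Ccnd3 and 0.80 for Cdkn1c. Thinning to 2000 UMIs gave 0.62, 0.00 and −0.37 for Ccnd1, Ccnd2 and Ccnd3 in RPE, and −1.99, −0.11 and 0.74 for neurogenic to progenitor Ccnd3, Cdkn1b and Cdkn1c. The mean over cells gave 0.54 for Ccnd1 and 0.46 for Ccnd3 in RPE, and 0.69 for neurogenic to progenitor Cdkn1c. Without the 5 richest cells, Ccnd1 in RPE was 0.84, and neurogenic to progenitor −1.30 for Ccnd1, −1.80 for Ccnd2 and 0.41 for Cdkn1c. Subtracting free RNA gave 0.47, −0.70 and −0.73 for Ccnd2, Cdkn1b and Cdkn1c in RPE and −2.22 for neurogenic to progenitor Ccnd2, and no value for Ccnd1 in RPE or neurons, where nothing was left in the mutant. Cdkn1c in RPE was −0.25 with no doublet removal. Neurogenic to progenitor Ccnd1 was −1.32 with cells over 20000 UMIs removed, −1.30 with a trimmed class total and, in an alternative chosen after seeing the data, −1.15 with shallow clusters named. Leaving out shared barcodes, also added later, moved none of the 10 main values by more than counting error. The cause was not tested. Levels under 3 UMIs and shares near those of erythroid cells could not be resolved at this depth, and leaving out a replicate was not possible with 1 library a genotype.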
